A study of Homo sapiens with 16 samples.

Results

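The genes described here lie on the short arm of chromosome 18, the arm that carries YES1 close to its telomere. They were taken by position and class alone, from the coordinates in the deposited tables. A gene was kept if it lay on chromosome 18, ended before position 15400000, was annotated as protein_coding, antisense, lincRNA or lncRNA, and was present in the tables of both cell lines. YES1 itself, from 721588 to 812546 (hg38, minus strand), was left out and used as the point from which distances were measured. The rule gave 193 genes of the 58735 in each table, of which 65 were protein-coding, 69 lincRNA and 59 antisense. No measured value enters this rule.

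Libraries were made from 2 established human lines of triple-negative breast cancer, MDA-MB-231 and SUM159PT. Cells of each line were transfected by lipofection with a guide RNA against YES1 (sgYES1) or a non-targeting guide (sgNTS), and RNA was collected 48 h after transfection. The 4 groups were MDA-MB-231 sgYES1, MDA-MB-231 sgNTS, SUM159PT sgYES1 and SUM159PT sgNTS, with 4 libraries each. The labels give the genotype of all of them as WT, and no source used here names the protein that worked with the guides.

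YES1 is a member of the Src kinase family, and the title of the series sets the experiment in a study of YES1, mitosis and taxanes. The genes around it on the short arm share a chromosome but no single pathway. They include TYMS, which makes thymidylate for DNA synthesis, NDC80, a microtubule-binding subunit of the kinetochore, CEP192, a centrosome scaffold, the myosin regulatory light chains MYL12A and MYL12B, and the homeobox repressor TGIF1. Deletion of this arm is a known human syndrome, and gains and losses of the arm occur in tumours, so the neighbours of a targeted gene can be followed along the arm as a set.

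Levels are given as counts per 1e6 reads after TMM scaling within a line (CPM). Changes are log2 fold changes of sgYES1 over sgNTS with their standard error (SE), fitted over all genes, and a gene was called at a Benjamini-Hochberg adjusted p under 0.05 over all genes tested. The design text describes the replicates as technical, so p-values measure only the spread between these libraries. In bulk RNA, fewer cells that express a gene and less RNA per cell cannot be told apart. Library totals (in units of 1e6) ranged from 17.2 to 25.1 in MDA-MB-231 cells and from 14.4 to 20.9 in SUM159PT. MDA-MB-231 sgNTS replicate 4 stood apart from replicates 1, 2 and 3 of its group (chi-square per degree of freedom 29.1, 19.6 and 9.38) and had the lowest mitochondrial share of its group, 2.34%. The progesterone receptor gene PGR had no counts in any library and the estrogen receptor gene ESR1 averaged at most 0.259 CPM in a group. The receptor gene ERBB2 (HER2), the third marker of the triple-negative label, was detected, with 99.5 CPM in sgYES1 and 109 CPM in sgNTS cells of MDA-MB-231, and 95.5 CPM in sgYES1 and 108 CPM in sgNTS cells of SUM159PT. The mesenchymal gene VIM averaged 922 to 1675 CPM and the epithelial keratin KRT18 168 to 300.0 CPM over the 4 groups. The summed level of 6 leukocyte markers was 3.26 CPM in sgYES1 and 1.19 CPM in sgNTS cells of MDA-MB-231, and 1.47 CPM in sgYES1 and 0.453 CPM in sgNTS cells of SUM159PT, with CD3E at 0 throughout. Of the 6 markers, 4 in MDA-MB-231 sgYES1 cells, 5 in MDA-MB-231 sgNTS cells and 6 in both groups of SUM159PT averaged under 1 CPM. The 3 endothelial markers summed to 2.76 CPM in sgYES1 and 1.60 CPM in sgNTS cells of MDA-MB-231, and to 1.64 and 0.924 CPM in SUM159PT. The 4 fibroblast markers were detected, with sums of 33.4 CPM in sgYES1 and 28.8 CPM in sgNTS cells of MDA-MB-231. In SUM159PT these sums were 65.2 and 66.3 CPM, and COL1A1 was the highest of the 4 in each group. The part of these differences between guides in the results below was not tested.

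YES1 was measured at 41.6, 42.9, 44.3 and 43.7 CPM in the sgYES1 libraries of MDA-MB-231, against 107, 109.6, 107 and 113 CPM in the sgNTS libraries. In SUM159PT it had 40.2, 40.0, 39.0 and 38.3 CPM in sgYES1 cells, against 97.9, 93.8, 90.6 and 89.4 CPM in sgNTS cells. Every sgYES1 library lay below every sgNTS library in both lines. The log2 fold change was -1.34 (SE 0.040) in MDA-MB-231 cells and -1.24 (SE 0.051) in SUM159PT, with an exact two-sided permutation p of 0.0286 in each line, the smallest that 4 libraries against 4 allow.

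Of the 193 genes, 55 passed the filter on low counts in MDA-MB-231 cells and 54 in SUM159PT. In MDA-MB-231, 10 of the 55 were called higher in sgYES1 cells, beside a background of 20.8% of all genes tested, and 17 were called lower, beside a background of 22.1%. In SUM159PT, 2 of the 54 were called higher, beside a background of 19.6%, and 20 were called lower, beside a background of 19.7%. As shares these are 18.2% higher and 30.9% lower in MDA-MB-231, and 3.70% higher and 37.0% lower in SUM159PT. The excess over the background was thus on the lower side in both lines, and in SUM159PT the higher side fell well below it. This was not particular to the short arm. Of 151 tested genes of the long arm, 29.8% were called lower and 9.27% higher in MDA-MB-231. In SUM159PT 35.4% of 147 long-arm genes were called lower and 9.52% higher. All called-lower genes of the short arm were protein-coding, 17 of 43 in MDA-MB-231 cells and 20 of 42 in SUM159PT. Over all protein-coding genes tested, 25.6% were called lower in MDA-MB-231 cells and 21.6% in SUM159PT. The remaining genes were rarely measured, with 132 of the 193 tested in neither line, and 75 in MDA-MB-231 cells and 83 in SUM159PT at 0 counts in all 8 libraries.

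**Figure D1:**
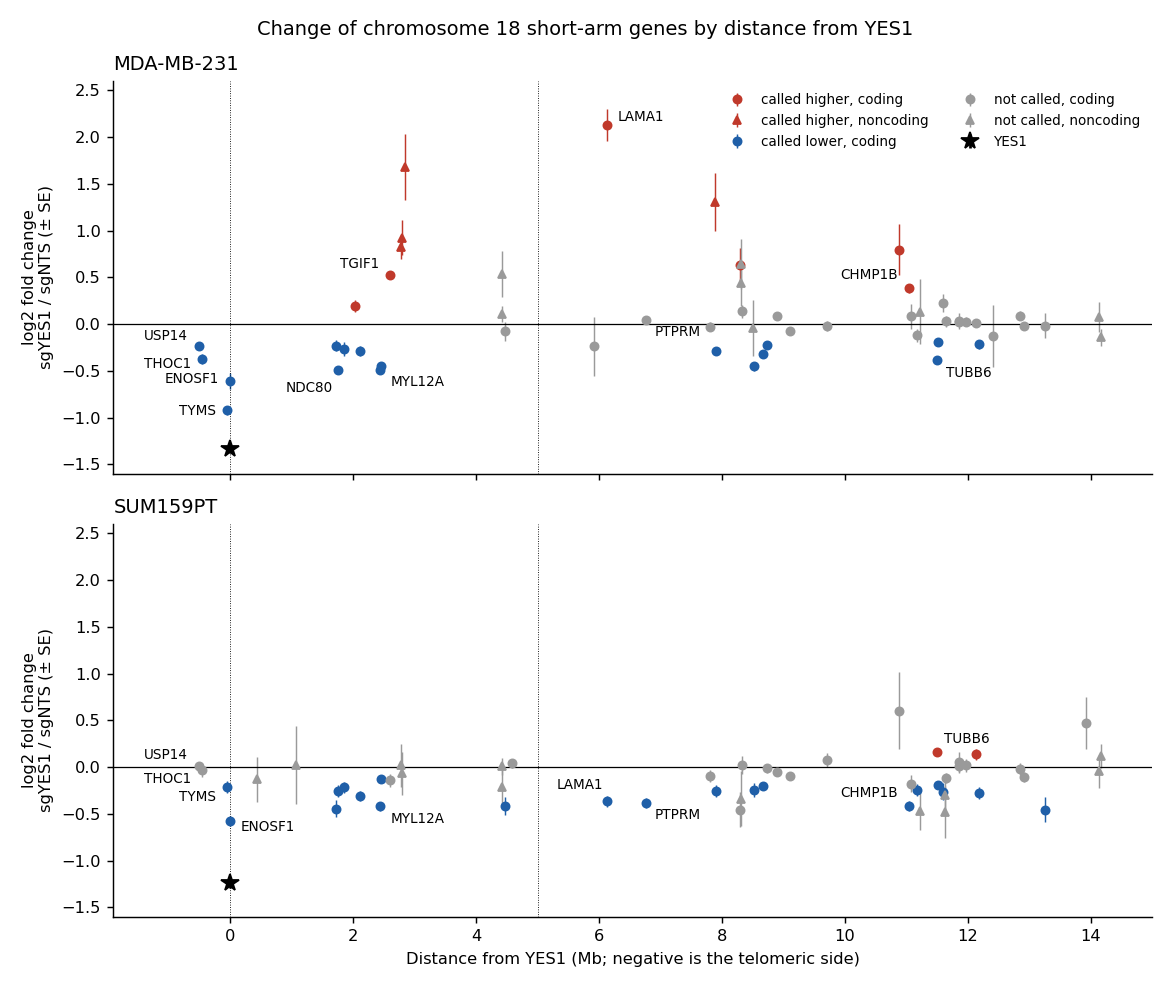
Log2 fold change (± SE) of each tested gene of the short arm against its distance from YES1 in Mb, negative towards the telomere, for MDA-MB-231 (top) and SUM159PT (bottom). Circles are protein-coding and triangles noncoding genes, red and blue are called higher and lower, the star is YES1, and the dotted lines mark YES1 and 5 Mb. In MDA-MB-231 all 4 genes on the telomeric side lie below 0, and beyond 10 Mb most points lie near 0.

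The 4 tested genes between YES1 and the telomere are, from the telomere inwards, USP14, THOC1, TYMS and ENOSF1. All 4 fell in MDA-MB-231, with a median log2 fold change of -0.49, and 2 of them, TYMS and ENOSF1, fell in SUM159PT, where the median was -0.12. The 4 are shown first because they are all the tested genes on that side. The other genes on this side, such as the centrin CETN1 and the collectin COLEC12, did not pass the filter in either line.

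ENOSF1 encodes a mitochondrial enzyme of the enolase superfamily and is the nearest tested gene, 8.91 kb from YES1. It lies on the minus strand from 670324 to 712676. It had 17.7, 19.2, 19.8 and 19.0 CPM in MDA-MB-231 sgYES1 libraries, against 31.9, 32.0, 27.9 and 23.9 CPM in sgNTS libraries. In SUM159PT it had 38.6, 39.7, 37.8 and 39.2 CPM in sgYES1 libraries, against 58.2, 57.2, 60.3 and 55.3 CPM in sgNTS libraries. The groups did not overlap in either line, and the sgNTS value nearest to the sgYES1 range in MDA-MB-231 came from replicate 4, the library that stood apart. The fitted changes were -0.61 (SE 0.086, adjusted p 6.38e-05) in MDA-MB-231 cells and -0.57 (SE 0.053, adjusted p 4.70e-08) in SUM159PT, which put ENOSF1 at 65.6% and 67.3% of the sgNTS level.

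TYMS encodes thymidylate synthase, the target of fluorouracil-type drugs, and lies on the plus strand from 657604 to 673578, 48.0 kb from YES1. It had 54.9, 61.1, 52.9 and 59.6 CPM in MDA-MB-231 sgYES1 libraries, against 107, 104, 109 and 112 CPM in sgNTS libraries. In SUM159PT it had 41.4, 45.9, 38.1 and 44.6 CPM in sgYES1 libraries, against 47.0, 50.8, 49.1 and 50.0 CPM in sgNTS libraries. The groups did not overlap in either line, but the gap in SUM159PT was narrow. The change was -0.92 (SE 0.048, adjusted p 5.86e-09) in MDA-MB-231, or 52.9% of the sgNTS level, the lowest log2 fold change of the 55 tested genes. In SUM159PT it was -0.21 (SE 0.061, adjusted p 0.00872), or 86.4% of the sgNTS level. TYMS and ENOSF1 overlap by 3255 bp on opposite strands and whether strand was used in the counting could not be settled, so reads in the shared stretch may have been counted for neither gene or for the wrong one.

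THOC1, a subunit of the THO complex that couples transcription to mRNA export, lies 454 kb from YES1. It had 34.8, 30.1, 30.7 and 32.5 CPM in MDA-MB-231 sgYES1 libraries, against 44.1, 40.0, 41.6 and 40.1 CPM in sgNTS libraries, with no overlap. In SUM159PT the sgYES1 libraries had 23.0, 21.3, 23.1 and 22.6 CPM, against 23.7, 23.1, 23.0 and 22.4 CPM in sgNTS libraries, and the groups overlapped. The change was -0.37 (SE 0.056, adjusted p 0.000109) in MDA-MB-231 cells and -0.03 (95% interval -0.17 to 0.11) in SUM159PT. USP14, a deubiquitinase of the proteasome, shares 110 bp with THOC1 where the ends of both genes meet and lies 507 kb from YES1. It had 147, 143, 142 and 143 CPM in MDA-MB-231 sgYES1 libraries, against 162, 165, 174 and 174 CPM in sgNTS libraries, a change of -0.23 (SE 0.036, adjusted p 0.000149). In SUM159PT its change was 0.0076 (95% interval -0.10 to 0.12), so an effect of the size seen in MDA-MB-231 lies outside that interval.

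The stretches upstream of 3 of these neighbours, and of MYL12A as a called gene farther away, are printed because these members moved together in MDA-MB-231. They come from RefSeq (GRCh38.p14), 5′ to 3′ on the strand of the gene, without the bases annotated as UTR, and capitals mark a CCAAT match.
THOC1, chr18:268051-268297, minus strand: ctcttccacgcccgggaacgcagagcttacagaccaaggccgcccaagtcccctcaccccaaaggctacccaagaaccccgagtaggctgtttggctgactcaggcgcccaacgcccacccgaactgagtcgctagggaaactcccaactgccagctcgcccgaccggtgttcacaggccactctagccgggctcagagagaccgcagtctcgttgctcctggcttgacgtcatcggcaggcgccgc
TYMS, chr18:657403-657603, plus strand: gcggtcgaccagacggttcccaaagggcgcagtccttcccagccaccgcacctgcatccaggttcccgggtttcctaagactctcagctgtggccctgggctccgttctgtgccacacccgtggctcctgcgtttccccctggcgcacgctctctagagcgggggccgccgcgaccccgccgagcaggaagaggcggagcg
ENOSF1, chr18:712677-712880, minus strand: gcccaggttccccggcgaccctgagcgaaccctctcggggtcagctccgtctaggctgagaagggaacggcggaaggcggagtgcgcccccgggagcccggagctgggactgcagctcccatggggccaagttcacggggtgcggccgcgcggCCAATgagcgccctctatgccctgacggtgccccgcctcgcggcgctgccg
MYL12A, chr18:3247232-3247480, plus strand: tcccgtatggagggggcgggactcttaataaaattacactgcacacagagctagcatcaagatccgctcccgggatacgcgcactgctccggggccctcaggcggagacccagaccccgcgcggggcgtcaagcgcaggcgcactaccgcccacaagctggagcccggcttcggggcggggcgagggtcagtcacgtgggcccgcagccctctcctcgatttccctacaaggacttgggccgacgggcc
Of these 4 stretches, that of ENOSF1 held a CCAAT and the other 3 held none. RefSeq held a promoter for 48 of the 61 genes tested in at least 1 line. Searched over 250 bases before the RefSeq start and on both strands, 12 of the 48 held CCAAT, beside 32.0% of 35116 promoters of that length. The RefSeq start can differ from the gene start in the deposited tables. The CHR letters TTTGAA or TTTAAA were in 9 of the 48, beside 21.9% of all promoters, and the E2F letters TTTCCCGC or TTTGGCGC in 3 (TYMS, PPP4R1 and CHMP1B), beside 1.93%. The TYMS match lies in bases that are not printed, between 657603 and 657652, and so inside the gene as the deposited tables place it. All these matches are letters in a window and not measured sites.

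**Figure D2:**
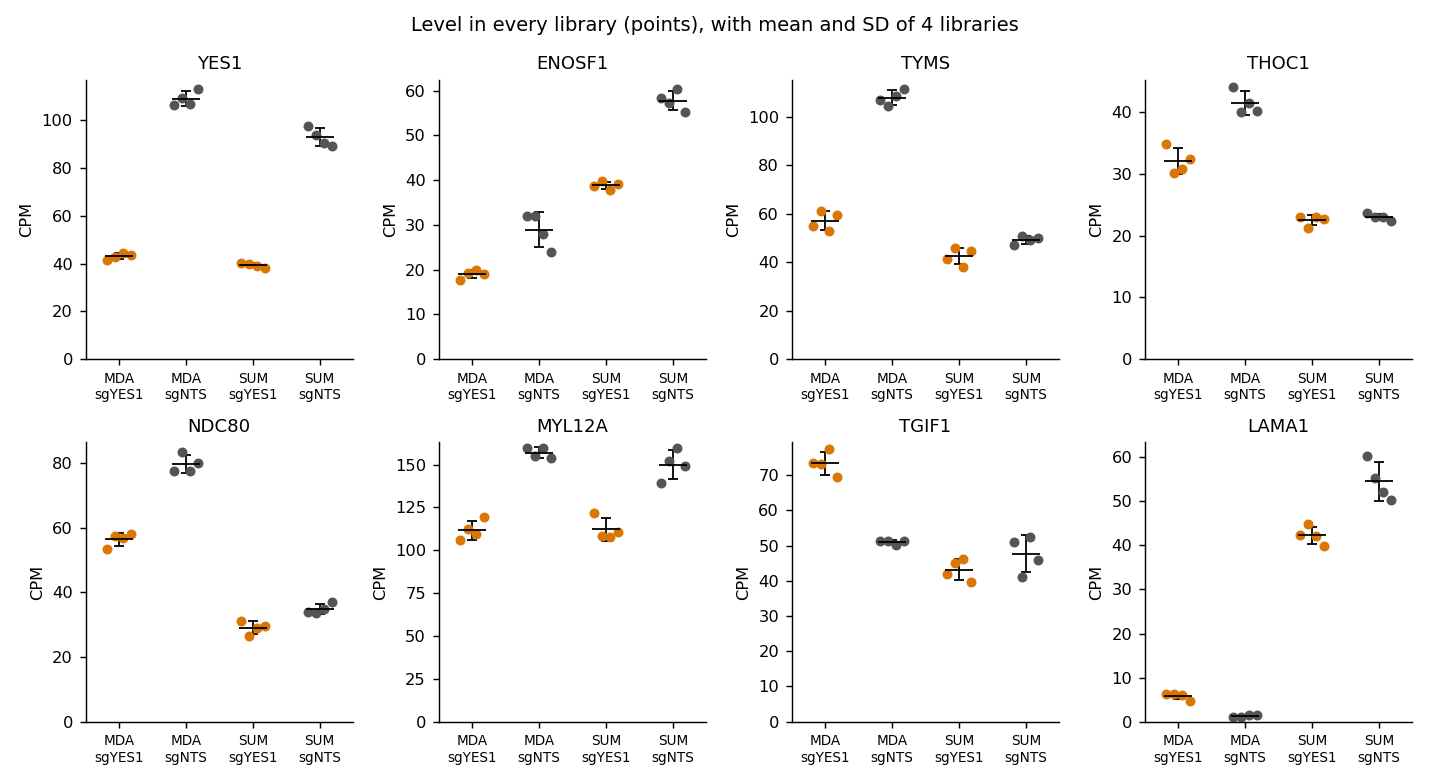
CPM in every library (points) with the mean and SD of 4 libraries (bars) for YES1 and 7 genes of the short arm, sgYES1 in orange and sgNTS in grey, in MDA-MB-231 (MDA) and SUM159PT (SUM). YES1 and ENOSF1 differ between guides to about the same degree in both lines, TYMS, THOC1 and NDC80 more in MDA-MB-231, and TGIF1 and LAMA1 are higher with sgYES1 in MDA-MB-231 alone.

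On the centromeric side no gene within 1 Mb of YES1 passed the filter in MDA-MB-231. In SUM159PT 1 did, the noncoding LINC00470, with 1.59, 1.38, 1.36 and 1.07 CPM in sgYES1 libraries, against 1.62, 1.56, 1.69 and 1.11 CPM in sgNTS libraries, and it was not called (log2 fold change -0.13, SE 0.24). The genes AP001020.3 and AP001020.1, which overlap YES1, were tested in neither line. The noncoding AP005230.1 at 1.07 Mb was tested in SUM159PT alone (log2 fold change 0.02, SE 0.41). The tested protein-coding genes of this side begin with METTL4 at 1.72 Mb and run to MYL12B at 2.45 Mb without a gene that was not called in MDA-MB-231. METTL4 and NDC80 are adjacent and read in opposite directions, and both fell in both lines.

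NDC80 binds microtubules at the outer kinetochore. It had 53.5, 57.4, 56.9 and 58.0 CPM in MDA-MB-231 sgYES1 libraries, against 77.4, 83.4, 77.4 and 79.9 CPM in sgNTS libraries. In SUM159PT it had 31.2, 26.4, 29.1 and 29.6 CPM in sgYES1 libraries, against 33.8, 33.5, 34.8 and 37.0 CPM in sgNTS libraries. Neither line had overlap between the guides. The changes were -0.49 (SE 0.043, adjusted p 6.86e-07) in MDA-MB-231 cells and -0.26 (SE 0.066, adjusted p 0.00373) in SUM159PT. METTL4, a methyltransferase of adenines, had 20.1, 20.5, 20.2 and 20.2 CPM in MDA-MB-231 sgYES1 libraries, against 24.7, 24.0, 22.4 and 23.7 CPM in sgNTS libraries, and its log2 fold change of -0.23 was the smaller of the pair there. In SUM159PT the order was the other way round, with METTL4 at -0.44 (SE 0.090, adjusted p 0.000495), where sgYES1 libraries had 14.2, 12.5, 12.8 and 11.9 CPM, against 18.5, 15.2, 17.7 and 18.5 CPM in sgNTS libraries.

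The next 4 genes that fell in both lines were SMCHD1, a chromatin protein of the inactive X, the phosphatidate phosphatase LPIN2, and the adjacent light chains MYL12A and MYL12B. MYL12A had 106, 112, 109 and 119 CPM in MDA-MB-231 sgYES1 libraries, against 159.7, 155, 159.8 and 154 CPM in sgNTS libraries. In SUM159PT it had 122, 108, 108 and 111 CPM in sgYES1 libraries, against 139.5, 152, 159.7 and 149 CPM in sgNTS libraries. Both lines were free of overlap, with changes of -0.49 (SE 0.040, adjusted p 4.05e-07) in MDA-MB-231 cells and -0.42 (SE 0.050, adjusted p 1.41e-06) in SUM159PT. MYL12B changed by -0.44 (SE 0.037, adjusted p 5.04e-07) in MDA-MB-231 and by -0.13 (SE 0.040, adjusted p 0.0119) in SUM159PT, a call that was lost without SUM159PT sgYES1 replicate 3 (adjusted p 0.0505). The 2 light chains are near-identical copies, so the split of reads between them is uncertain. Per kb of gene length, MYL12B was the most abundant gene of the arm in both lines, at 174 CPM per kb in MDA-MB-231 cells and 103 CPM per kb in SUM159PT.

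LPIN2 had -0.29 (SE 0.054, adjusted p 0.000645) in MDA-MB-231 cells and -0.31 (SE 0.053, adjusted p 9.44e-05) in SUM159PT. SMCHD1 had -0.27 (SE 0.076, adjusted p 0.0101) in MDA-MB-231, where 1 sgNTS library (99.3 CPM) lay inside the sgYES1 range of 86.2 to 104 CPM. Its change in SUM159PT was -0.22 (SE 0.059, adjusted p 0.00558), and there too the guides overlapped. From the telomere to MYL12B, 10 of the 11 tested genes fell in MDA-MB-231, beside 22.1% called lower over all genes tested. For SUM159PT the count was 8 of 12, beside 19.7%. The exception in MDA-MB-231 was EMILIN2, an extracellular glycoprotein, which rose by 0.20 (SE 0.064, adjusted p 0.0222), a call lost without sgYES1 replicate 1, sgYES1 replicate 2 or sgNTS replicate 3 (adjusted p 0.0544 to 0.0746). The end of this stretch was placed after its values were seen, so it carries no test. That choice also raises its counts, and their comparison with the shares over all genes is descriptive only.

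Immediately beyond MYL12B the direction changed in MDA-MB-231. TGIF1, a repressor of TGF-beta and retinoid signalling, had 73.5, 73.2, 77.4 and 69.3 CPM in sgYES1 libraries, against 51.3, 51.4, 50.2 and 51.2 CPM in sgNTS libraries, without overlap and with a change of 0.52 (SE 0.043, adjusted p 4.16e-07). In SUM159PT its sgYES1 libraries had 41.9, 45.1, 46.3 and 39.6 CPM, against 51.1, 41.1, 52.5 and 45.8 CPM in sgNTS libraries, which overlapped (log2 fold change -0.14, SE 0.072). Without SUM159PT sgNTS replicate 2, the lowest of its group, the change was -0.21 and called (adjusted p 0.0165). The noncoding DLGAP1-AS1, DLGAP1-AS2 and AP002478.1, which follow TGIF1, also rose in MDA-MB-231, by 0.83, 0.93 and 1.68. DLGAP1-AS1 had 6.05, 5.71, 7.05 and 6.85 CPM in sgYES1 libraries, against 4.33, 3.61, 3.62 and 2.95 CPM in sgNTS libraries. Both DLGAP1 antisense genes lie inside DLGAP1, a synaptic scaffold gene, on the opposite strand, and DLGAP1 itself drew 30 counts over all libraries. The other noncoding gene that rose in MDA-MB-231, GACAT2, averaged 0.52 CPM over its libraries.

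These 4 were the only noncoding genes of the arm called in MDA-MB-231, of 12 tested. That is 33.3%, near the 26.3% called higher among all antisense and lincRNA genes tested there. In SUM159PT the 12 noncoding genes tested had adjusted p-values of 0.0723 or more (edgeR), the lowest being that of AP001542.3. The median change of the 12 in MDA-MB-231 was 0.49, beside 0.26 over all 1318 antisense and lincRNA genes tested there. In SUM159PT the medians were -0.10 for the 12 and -0.04 for all 1211.

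Between 5 and 10 Mb from YES1, 7 of 17 tested genes were called in MDA-MB-231, 3 higher (17.6%) and 4 lower (23.5%). These shares lay near the 20.8% and 22.1% of all genes tested. In SUM159PT 5 of 13 were called, all lower (38.5%), beside 19.7% of all genes called lower and 19.6% higher. MTCL1, a microtubule crosslinker, and TWSG1, a secreted BMP modulator, fell in both lines. TWSG1 had 92.4, 105, 90.8 and 92.2 CPM in MDA-MB-231 sgYES1 libraries, against 124, 136, 128 and 132 CPM in sgNTS libraries, a change of -0.45 (SE 0.048, adjusted p 4.54e-06). In SUM159PT its change was -0.25 (SE 0.074, adjusted p 0.0112), and it was not called without sgNTS replicate 1 (adjusted p 0.0527). MTCL1 had -0.29 (SE 0.040) in MDA-MB-231 cells and -0.25 (SE 0.062) in SUM159PT. The phosphatase subunit PPP4R1 fell by 0.23 in MDA-MB-231 (adjusted p 7.99e-05) and had -0.011 in SUM159PT. NDUFV2, a subunit of mitochondrial complex I, is listed as higher in MDA-MB-231 (0.63, SE 0.18, adjusted p 0.0128) at a mean of only 2.30 CPM. It is overlapped by the antisense genes AP005899.1 and NDUFV2-AS1 over 3474 and 13081 bp. On its own strand AP005263.1 overlaps it over 31610 bp, so the level and change of NDUFV2 are uncertain.

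Beyond 10 Mb, 2 of 20 tested genes were called higher (10%) and 3 lower (15%) in MDA-MB-231. These shares lay under the 20.8% and 22.1% of all genes tested. In SUM159PT 2 of 22 were called higher (9.09%) and 6 lower (27.3%), beside 19.6% and 19.7% of all genes tested. Those that fell in both lines were CEP192 (-0.22, SE 0.049, in MDA-MB-231 cells and -0.28, SE 0.061, in SUM159PT) and the mitochondrial protease AFG3L2 (-0.20, SE 0.039, and -0.19, SE 0.044). In SUM159PT the zinc finger gene ZNF519 fell by 0.46, the inositol monophosphatase IMPA2 by 0.24 and the lipid transfer gene PRELID3A by 0.26. ZNF519 was not called without SUM159PT sgNTS replicate 1 (adjusted p 0.0535), nor PRELID3A without sgNTS replicate 1, sgNTS replicate 3 or sgYES1 replicate 4 (adjusted p 0.0530 to 0.133). GNAL, an olfactory-type G protein gene, was called in MDA-MB-231 at a mean of 0.626 CPM (0.80, SE 0.27, adjusted p 0.0281), and leaving out any of 5 of the 8 libraries ended the call (adjusted p 0.0512 to 0.0821). The nucleoporin SEH1L was called higher in SUM159PT at an adjusted p of 0.0497 (0.14, SE 0.054), and leaving out any of 5 of the 8 libraries ended that call too (adjusted p 0.0614 to 0.205). The cap methyltransferase RNMT, the phosphatase PTPN2, the proteasome chaperone PSMG2, FAM210A, SPIRE1 and CEP76 were called in neither line.

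Seen by distance, the tested genes on the telomeric side or under 5 Mb from YES1 had a median log2 fold change of -0.23 in MDA-MB-231, with 5 higher and 10 lower of 18, against 0.02 for those at 5 Mb or more, with 5 higher and 7 lower of 37. In SUM159PT the nearer genes had -0.14, with 9 of 19 called lower, against -0.12 for those farther away, with 2 higher and 11 lower of 35. Over all genes tested, 20.8% were called higher and 22.1% lower in MDA-MB-231, and 19.6% and 19.7% in SUM159PT. Among genes averaging 5 CPM or more, the medians were -0.27 and -0.02 in MDA-MB-231 cells and -0.21 and -0.11 in SUM159PT, nearer genes first. This floor left 3 of 12 noncoding and 36 of 43 protein-coding genes in MDA-MB-231, and 2 of 12 and 39 of 42 in SUM159PT. In MDA-MB-231 it left 1 gene called higher of 24 at 5 Mb or more, in place of 5 of 37. The coding genes LAMA1, NDUFV2 and GNAL were among those it took out. The spread within each zone was wider than these differences, since the nearer genes of MDA-MB-231 ran from -0.92 to 1.68. Across genes, which are not replicates and share their libraries, Spearman's rho of the change with distance was 0.18 in MDA-MB-231 (n = 55 genes) and 0.23 in SUM159PT (n = 54), and Pearson's r was 0.04 and 0.23. At 5 CPM or more rho was 0.41 (n = 39) and 0.34 (n = 41). Without the 4 telomeric genes it was 0.23 in MDA-MB-231 (n = 35) and 0.37 in SUM159PT (n = 37) at that level. Over all tested genes of the centromeric side rho was -0.0031 in MDA-MB-231 (n = 51) and 0.24 in SUM159PT (n = 50). Pearson's r was -0.14 and 0.22 there. In MDA-MB-231 the relation over all tested genes thus lay in the 4 telomeric genes, and at 5 CPM or more much of it did.

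**Figure D3:**
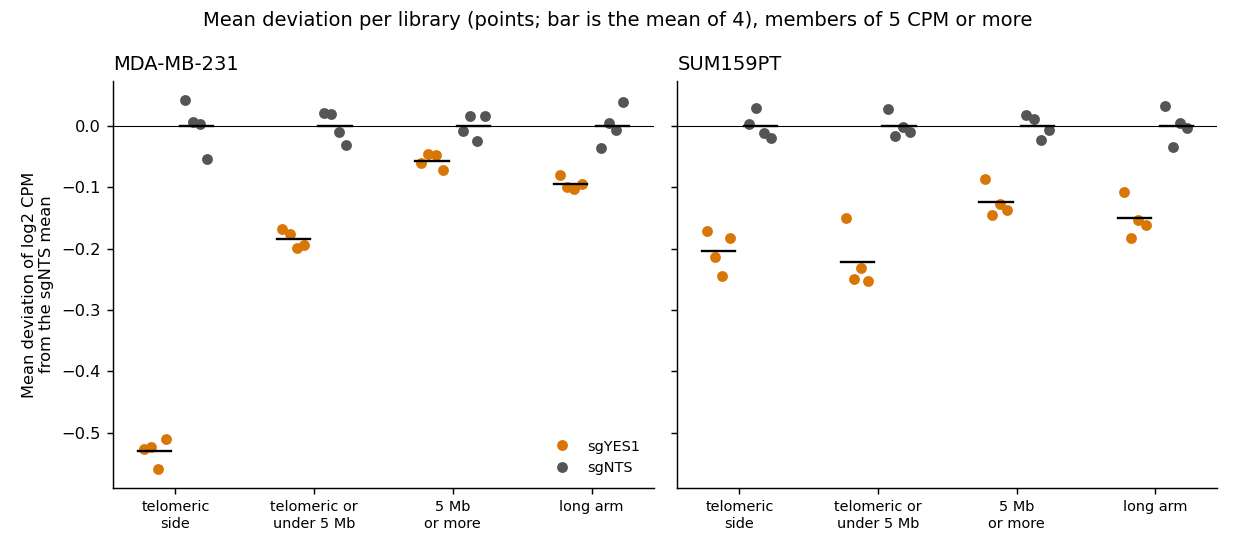
Mean deviation of log2 CPM from the sgNTS mean of the same line, per library (points; the bar is the mean of 4), over tested genes of at least 5 CPM on the telomeric side, on that side or under 5 Mb from YES1, at 5 Mb or more, and on the long arm. All sgYES1 libraries (orange) lie below all sgNTS libraries (grey) in each set, by most on the telomeric side in MDA-MB-231 (-0.56 to -0.51).

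Per library, the telomeric genes lay at -0.56 to -0.51 relative to the sgNTS mean of log2 CPM in the 4 MDA-MB-231 sgYES1 libraries, against -0.05 to 0.04 in the sgNTS libraries. In SUM159PT the sgYES1 libraries lay between -0.24 and -0.17, against -0.02 to 0.03 in the sgNTS libraries. For genes at 5 Mb or more the sgYES1 libraries lay between -0.07 and -0.05 in MDA-MB-231, against -0.02 to 0.02 in sgNTS libraries, and between -0.14 and -0.09 in SUM159PT, against -0.02 to 0.02 in sgNTS libraries. The long arm, of the same gene classes, lay at -0.10 to -0.08 in MDA-MB-231 sgYES1 libraries, against -0.04 to 0.04 in sgNTS libraries, and at -0.18 to -0.11 in SUM159PT sgYES1 libraries, against -0.03 to 0.03 in sgNTS libraries. Replicate 1 of SUM159PT sgYES1 lay nearest to 0 in every one of these sets.

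The share of all counts that fell on the 193 genes was 0.301% ± 0.0025 in sgYES1 and 0.335% ± 0.0053 in sgNTS cells of MDA-MB-231 (SD, n = 4 each), so that it fell by 10.4%. In SUM159PT it was 0.248% ± 0.0059 in sgYES1 and 0.267% ± 0.0023 in sgNTS cells, so that it fell by 6.99%. The change of the long arm's share was -1.89% in MDA-MB-231, with overlap between the guides, and -7.56% without overlap in SUM159PT. The values of both arms were thus close in SUM159PT and apart in MDA-MB-231, and the difference between arms was not tested. Without its 2 most abundant genes, the ratio of sgYES1 to sgNTS for the short arm in MDA-MB-231 was 0.928 in place of 0.896.

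Set beside the other chromosomes, chromosome 18 as a whole had the lowest median log2 fold change of 23 chromosomes in both lines, at 5 CPM or more. The median was -0.09 in MDA-MB-231, close to the -0.09 of chromosome 4 and the -0.08 of chromosome 13, and -0.12 in SUM159PT, where chromosomes 4 and 13 both had -0.09. Its share of genes called lower, 37.0% in MDA-MB-231 cells and 42.6% in SUM159PT, was also the highest of the 23. The short arm alone had -0.07 in MDA-MB-231 cells and -0.14 in SUM159PT, and the long arm -0.09 and -0.11. The median of all genes at that level was -0.03 in MDA-MB-231 cells and -0.02 in SUM159PT. Chromosomal medians are given as a description, and no test was made of them.

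**Figure D4:**
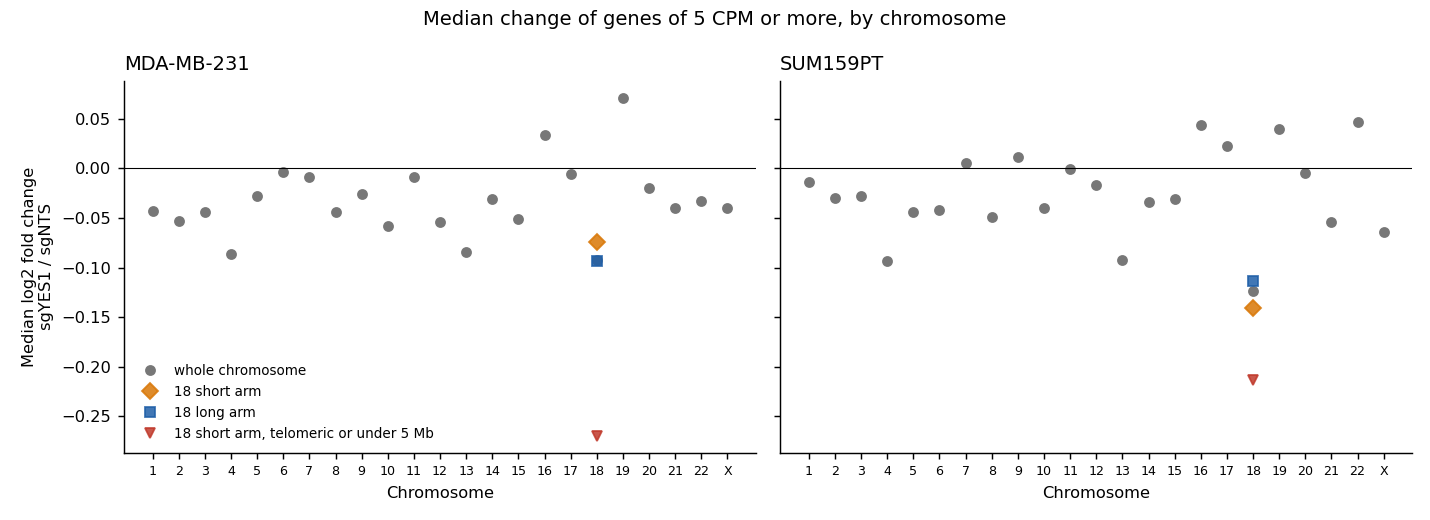
Median log2 fold change of sgYES1 over sgNTS for genes of at least 5 CPM on each chromosome (grey), with the short arm of chromosome 18 (diamond), its long arm (square) and the short-arm genes on the telomeric side or under 5 Mb from YES1 (triangle) added at chromosome 18. Chromosome 18 has the lowest chromosomal median in both lines. The genes marked by the triangle lie lower still, at -0.27 in MDA-MB-231 cells and -0.21 in SUM159PT. In SUM159PT those on the telomeric side alone had -0.12, and those at 1 to 5 Mb on the centromeric side -0.24.

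The genes of the arm were also grouped by what they do, in lists so short that each count is given only beside the share of all genes tested. In MDA-MB-231 that share was 22.1% called lower and 20.8% higher, and in SUM159PT 19.7% lower and 19.6% higher. Of the 5 tested genes for nucleotides and RNA, TYMS, ENOSF1, THOC1 and METTL4 fell in MDA-MB-231 and TYMS, ENOSF1 and METTL4 in SUM159PT, and RNMT was called in neither. The list had a median of -0.37 in MDA-MB-231 cells and -0.21 in SUM159PT, beside 0.01 and -0.01 over all genes tested. Of the 8 tested genes for mitosis, centrosome and microtubules, 5 fell and 1 rose in MDA-MB-231, and 5 fell and 2 rose in SUM159PT, with medians of -0.24 and -0.23. NDC80, CEP192, MTCL1 and SMCHD1 were the 4 that fell in both lines. SMCHD1 is counted because the list as drawn up held it, although it is a chromatin protein of the inactive X. These lists, like the partner lists, were drawn up with earlier results of these data known, and their counts are descriptive.

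Of the actomyosin, small GTPase and adhesion genes, 2 rose and 3 fell of 10 in MDA-MB-231, and 5 of 9 fell in SUM159PT, with medians of 0.0015 and -0.13. MYL12A and MYL12B fell in both lines, while the laminin chain LAMA1 and the receptor phosphatase PTPRM fell in SUM159PT. For transcription and signalling, 2 rose (TGIF1 and GNAL) and 2 fell (TWSG1 and PPP4R1) of 9 in MDA-MB-231, and 3 of 8 fell in SUM159PT (ZBTB14, TWSG1 and ZNF519). Of 5 genes for the proteasome and protein quality, USP14 and AFG3L2 fell in MDA-MB-231 and AFG3L2 in SUM159PT. The tethering protein VAPA, the most abundant of these in CPM, had -0.07 (95% interval -0.14 to 0.00023) in MDA-MB-231 cells and -0.10 (95% interval -0.18 to -0.011) in SUM159PT and was not called in either. For metabolism and mitochondria, 1 rose (NDUFV2) and 1 fell (LPIN2) of 6 in MDA-MB-231, and LPIN2, IMPA2 and PRELID3A fell of 6 in SUM159PT. The change of NDUFV2 is uncertain because other genes overlap it.

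Partners of these genes that are encoded on other chromosomes were read against the same shares, 22.1% called lower in MDA-MB-231 and 19.7% in SUM159PT. Among protein-coding genes of at least 5 CPM, the shares called lower were 29.7% and 24.7%. The 3 other subunits of the NDC80 complex, NUF2, SPC24 and SPC25, all fell in MDA-MB-231 by as much as NDC80 itself, with a median of -0.50. NUF2 averaged 48.7 ± 2.1 CPM in sgYES1 and 69.1 ± 1.9 CPM in sgNTS cells there (SD, n = 4 each), and its change was -0.50 (adjusted p 7.73e-07). In SUM159PT only NUF2 of the 3 was called (-0.23, adjusted p 0.0113), and the median was -0.06 beside -0.26 for NDC80. The centriole assembly genes fell in 4 of 6 in MDA-MB-231, such as PLK4 with -0.53, and in 1 of 6 in SUM159PT, CEP152 with -0.41.

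For TYMS the comparison was with 7 genes of thymidylate and deoxynucleotide supply. All 7 fell in MDA-MB-231, with a median of -0.46 and the ribonucleotide reductase subunit RRM2 lowest at -0.70 (adjusted p 6.09e-09), so TYMS at -0.92 lay below each of them. In SUM159PT 2 of 7 fell, TK1 by 0.15 and DTYMK by 0.19, with a median of -0.09, and TYMS had -0.21. Whether the difference between TYMS and this list exceeds the spread between genes was not tested.

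Other partner lists were short, and several of their counts lay near the shares called lower over all genes. For THOC1, 2 of 5 other THO subunits fell in MDA-MB-231, THOC2 by 0.16 and THOC3 by 0.30, and 1 in SUM159PT, THOC6 by 0.54. For SEH1L, 6 of 7 other members of the NUP107 nuclear pore complex fell in MDA-MB-231 while SEH1L had 0.016 (95% interval -0.058 to 0.089), and in SUM159PT 1 rose, NUP85, and 2 fell. For the light chains, 3 of 4 other genes of nonmuscle myosin II fell in MDA-MB-231 cells and 2 in SUM159PT. MYH10, a heavy chain, had the lowest values of the 4, -0.55 in MDA-MB-231 cells and -0.39 in SUM159PT. Of 11 other genes of the matrix arm of complex I, 1 rose and 2 fell in MDA-MB-231 cells and 2 fell in SUM159PT, which is no more than the share called lower over all genes in either line. Of 6 proteasome assembly and deubiquitinase genes, 1 rose and 1 fell in MDA-MB-231 cells and 2 rose in SUM159PT.

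**Figure D5:**
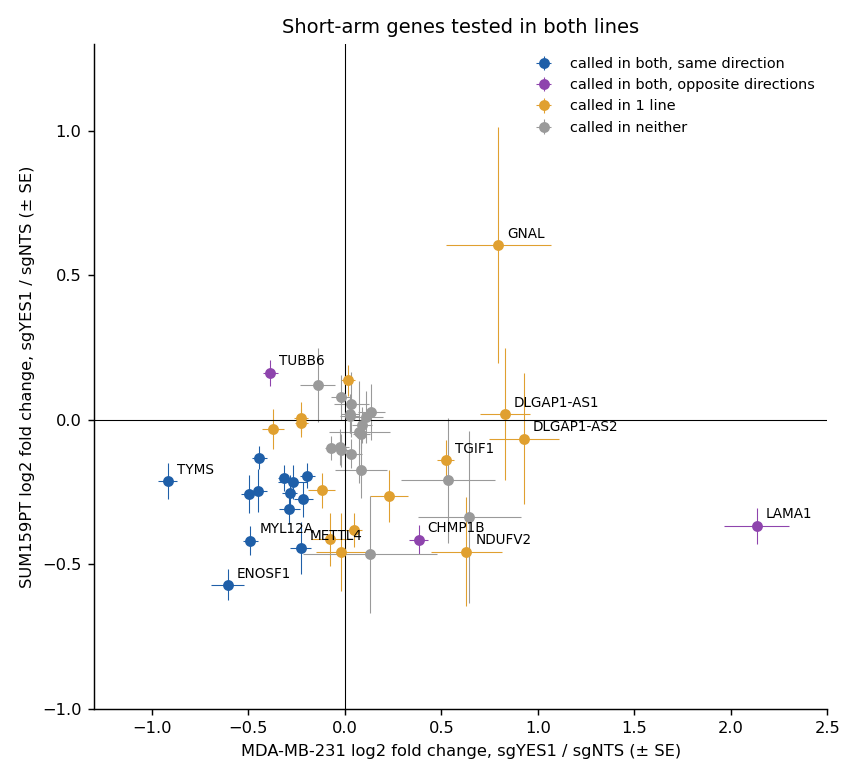
Log2 fold change (± SE) of sgYES1 over sgNTS in SUM159PT against that in MDA-MB-231 for the 48 short-arm genes tested in both lines, coloured by the call in each line. The 13 genes called in both lines in the same direction all lie in the lower left, and LAMA1, CHMP1B and TUBB6 were called in opposite directions. The share of such calls over all genes was not computed.

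Both lines could be compared for 48 genes. Of these, 13 fell in both lines, 3 were called in opposite directions and 18 were called in neither. The shares of such calls over all genes were not computed, so whether these counts are unusual cannot be said. Those that fell in both included TYMS, ENOSF1, METTL4, NDC80, SMCHD1, LPIN2, MYL12A, MYL12B, MTCL1, TWSG1, AFG3L2 and CEP192. The correlation of the changes across genes was weak, with Pearson's r of 0.09 and Spearman's rho of 0.13, and 0.25 and 0.30 over the 37 genes at 5 CPM or more.

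The difference of the guide effects, SUM159PT minus MDA-MB-231, was tested over all 16 libraries. For YES1 it was 0.09 (95% interval -0.04 to 0.21, adjusted p 0.308). Of 62 genes of the arm, 7 were called with a higher effect in SUM159PT, beside a background of 12.7% of all genes tested, and 9 with a lower one, beside a background of 11.9%. All 7 of the first kind were genes that fell in MDA-MB-231. The difference was 0.70 (SE 0.080, adjusted p 5.74e-07) for TYMS, 0.54 for TUBB6, 0.33 for THOC1, 0.30 for MYL12B, 0.23 for each of USP14 and NDC80, and 0.20 for PPP4R1. That of NDC80 was not called without MDA-MB-231 sgNTS replicate 2 or sgYES1 replicate 1 (adjusted p 0.0607 and 0.0684). By contrast the difference for ENOSF1 was 0.03 (95% interval -0.18 to 0.23), for MYL12A 0.06 (95% interval -0.08 to 0.20) and for LPIN2 -0.03 (95% interval -0.19 to 0.13).

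LAMA1, a chain of the basement membrane protein laminin, had the largest difference, -2.51 (SE 0.16, adjusted p 9.80e-11). In SUM159PT it had 42.4, 44.7, 42.1 and 39.9 CPM in sgYES1 libraries, against 60.4, 55.3, 52.1 and 50.2 CPM in sgNTS libraries, a change of -0.37 (SE 0.062, adjusted p 7.46e-05). In MDA-MB-231 it had 6.28, 6.23, 6.13 and 4.72 CPM in sgYES1 libraries, against 0.999, 1.17, 1.61 and 1.54 CPM in sgNTS libraries, a change of 2.13 (SE 0.17, adjusted p 2.89e-07). The guides did not overlap in either line, and the level in MDA-MB-231 stayed far below that of SUM159PT with either guide.

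CHMP1B, a subunit of the ESCRT-III membrane scission machinery, had 62.5, 68.1, 64.2 and 61.4 CPM in SUM159PT sgYES1 libraries, against 86.5, 81.9, 87.3 and 85.5 CPM in sgNTS libraries (-0.41, SE 0.050). In MDA-MB-231 it had 38.4, 40.2, 41.7 and 41.4 CPM in sgYES1 libraries, against 33.1, 30.2, 30.2 and 30.6 CPM in sgNTS libraries (0.38, SE 0.051). No library overlapped in either line, and the difference was -0.81 (SE 0.069, adjusted p 5.82e-09). It lies within GNAL on the same strand, which drew 222 counts in all against 16263 for CHMP1B.

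TUBB6, a beta-tubulin, went the other way, with 226, 225, 225 and 229.8 CPM in SUM159PT sgYES1 libraries, against 189.5, 221, 195 and 202 CPM in sgNTS libraries (0.16, SE 0.045), without overlap. In MDA-MB-231 it had 213, 224, 237 and 236 CPM in sgYES1 libraries, against 300.4, 287, 296 and 307 CPM in sgNTS libraries (-0.39, SE 0.040), again without overlap. Its gene overlaps AFG3L2 by 15377 bp on the opposite strand, and AFG3L2 had nearly the same change in both lines, with a difference of -0.0093 (95% interval -0.13 to 0.11).

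The other genes with a lower effect in SUM159PT were TGIF1 (-0.67), DLGAP1-AS1 (-0.82), DLGAP1-AS2 (-1.003), PTPRM (-0.44), NDUFV2 (-1.10), PRELID3A (-0.50) and the noncoding AP001029.1 (-1.87). The value of NDUFV2 is uncertain because of its overlaps. PTPRM had 34.6, 33.7, 34.3 and 34.1 CPM in SUM159PT sgYES1 libraries, against 46.2, 42.5, 46.7 and 42.9 CPM in sgNTS libraries. In MDA-MB-231 it had 179, 181, 182 and 169.9 CPM in sgYES1 libraries, against 174, 186, 166 and 163 CPM in sgNTS libraries, which overlapped. It thus fell in the line with the lower level.

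The sgNTS libraries alone show how the arm differed between the lines, on a scaling over all 16 libraries. Of 62 genes tested, 22 were higher in SUM159PT, beside a background of 40.5% of all genes, and 26 were lower, beside a background of 41.3%. The median difference was -0.06 on the log2 scale for the short arm and 0.35 for the long arm, beside -0.0073 for all genes. The lines come from separate tables, so a line effect and a table effect cannot be told apart. EPB41L3, a membrane skeleton protein, differed most, with 91.7 ± 3.1 CPM in SUM159PT and 0.0471 ± 0.043 CPM in MDA-MB-231 (SD, n = 4 each). LAMA1 had 55.2 ± 4.1 CPM in SUM159PT and 1.31 ± 0.29 CPM in MDA-MB-231. EMILIN2 went the other way, with 0.226 ± 0.12 CPM in SUM159PT and 19.4 ± 0.96 CPM in MDA-MB-231. Of the neighbours of YES1, ENOSF1 was higher in SUM159PT (log2 difference 1.04, SE 0.069), while TYMS (-1.10, SE 0.055), THOC1 (-0.81, SE 0.058) and USP14 (-0.41, SE 0.047) were lower, and YES1 differed by -0.19 (SE 0.040) in the same direction.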

How the data were processed

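The authors deposited whole-number counts of reads for every gene, in 1 table for either line. The submitters' processing notes name hg38, featureCounts 1.5.0-p3 and HISAT2 2.0.5, without saying what each did. The labels' protocols name both a directional and a non-directional library kit, so whether counting used strand is unknown here.

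Counts were scaled by TMM and tested with edgeR 4.0.16 (quasi-likelihood F-test, R 4.3.3) in each line over 8 libraries, after filterByExpr with a minimum count of 10 and a minimum total of 15, with Benjamini-Hochberg adjustment over all genes tested. The difference between lines and the sgNTS line contrast came from 1 fit over 16 libraries. The biological coefficient of variation was 5.85% in MDA-MB-231 cells and 5.66% in SUM159PT cells. Intervals are 95% and cover the spread between libraries. YES1 was also tested with an exact two-sided permutation test (scipy 1.17.1). DESeq2 1.42.0, library totals, other filters, a replicate block and leaving out each library were alternatives. The tests were tried on simulated data first.

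Genes were named by position, by the size of called changes, by opposite or shared calls, by the difference between lines and by level, and a few others after their values were seen. The members follow from a rule of position and class that uses no measured value. That rule, the role lists and the partner lists were drawn up with earlier results of these data known. A result for 1 gene of the arm is not reported here.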

Additional observations from a re-analysis of the deposited data

Results flagged for a closer look

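The effect of the guide differed between the lines for 16 genes of the arm (difference of log2 fold changes, SUM159PT minus MDA-MB-231, edgeR quasi-likelihood test over 16 libraries with adjusted p under 0.05). These were 7 higher and 9 lower of 62 genes tested, beside the 12.7% higher and 11.9% lower among all genes tested, so the share is near the background. The effect was higher in SUM159PT for TYMS (0.70), TUBB6 (0.54), THOC1 (0.33), MYL12B (0.30), USP14 (0.23), NDC80 (0.23) and PPP4R1 (0.20). It was lower in SUM159PT for LAMA1 (-2.51), AP001029.1 (-1.87), NDUFV2 (-1.10), DLGAP1-AS2 (-1.003), DLGAP1-AS1 (-0.82), CHMP1B (-0.81), TGIF1 (-0.67), PRELID3A (-0.50) and PTPRM (-0.44). AP001029.1 averaged 1.13 CPM in SUM159PT and 0.318 CPM in MDA-MB-231. NDUFV2 is overlapped by other genes, and its value is uncertain.

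In 10 of 148 groups of 4 libraries, 1 library lay far from the other 3 by Dixon's criterion, and chance alone gives about 1 in 20. Among sgYES1 libraries of MDA-MB-231, replicate 4 was low for LAMA1 (4.72 CPM, the others 6.13 to 6.28) and for AFG3L2 (73.8 CPM), replicate 2 was high for TWSG1 (104.7 CPM) and METTL4 (20.5 CPM), and replicate 1 was low for PPP4R1 (139 CPM). Among MDA-MB-231 sgNTS libraries, replicate 1 was high for CHMP1B (33.1 CPM, the others 30.2 to 30.6). Among SUM159PT sgYES1 libraries, replicate 3 was low for AFG3L2 (108 CPM) and NAPG (23.2 CPM). Among SUM159PT sgNTS libraries, replicate 2 was low for DLGAP1-AS2 (1.56 CPM) and replicate 3 for PSMG2 (49.4 CPM).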

How the results depend on the processing

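Of the counts of called genes, DESeq2, library totals, a minimum mean of 1 CPM and the replicate block moved none by more than 1.5 times. With no filter on low counts, 17 genes were called higher in MDA-MB-231 and 1 in SUM159PT. Without the 134 genes that overlap another gene, 1 was higher and 2 lower in MDA-MB-231, in place of 10 and 17. In SUM159PT 0 were higher and 4 lower, in place of 2 and 20. For the difference between lines 0 were higher and 2 lower, and between the lines' sgNTS cells 4 higher and 4 lower. Most calls thus lay in overlapping genes. The number tested among the remaining genes was not counted, so the shares called cannot be compared. Leaving out each library gave 1 to 2 genes called higher in SUM159PT.

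By position, library totals gave medians of -0.18 near YES1 and 0.070 at 5 Mb or more in MDA-MB-231. At 5 CPM or more these were -0.27 and -0.020, the second with its sign turned, the near median in SUM159PT was -0.21, and rho was 0.41 in MDA-MB-231 cells and 0.34 in SUM159PT. Leaving out each library gave, in MDA-MB-231, -0.24 to -0.15 near YES1, -0.00019 to 0.033 farther away and rho of 0.14 to 0.22, and in SUM159PT -0.20 to -0.12 near and -0.17 to -0.12 farther away. The summed ratio of the arm in MDA-MB-231 was 0.928 without its most abundant 2 genes. The cause of these shifts was not tested.

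Among genes that were not called, the sign turned in MDA-MB-231 with no filter for SEH1L (-0.012) and PSMG2 (-0.0038), and with library totals for ZNF519 (0.027), RNMT (0.027) and NAPG (0.024). In SUM159PT it turned for PPP4R1 (0.015 with library totals, 0.00097 at 1 CPM or more) and FAM210A (0.0083 with library totals). The difference between lines turned for AFG3L2 (0.018 with DESeq2, 0.0076 at 1 CPM or more, 0.0067 with no filter) and PSMG2 (0.0047 with DESeq2). Leaving out each library turned the sign, of values that were not called, in MDA-MB-231 for ZNF519 (-0.085 to 0.062), RNMT (-0.045 to 0.011), PSMG2 (-0.022 to 0.046) and NAPG (-0.048 to 0.0037), in SUM159PT for USP14 (-0.040 to 0.041), DLGAP1-AS2 (-0.27 to 0.10), DLGAP1-AS1 (-0.13 to 0.092), PPP4R1 (-0.040 to 0.013), PSMG2 (-0.024 to 0.047) and FAM210A (-0.060 to 0.034), and for the difference between lines in ENOSF1 (-0.020 to 0.14), VAPA (-0.051 to 0.018), AFG3L2 (-0.017 to 0.047), LPIN2 (-0.052 to 0.034), CEP192 (-0.10 to 0.0068), PSMG2 (-0.044 to 0.060) and GNAL (-0.45 to 0.12). EMILIN2 in MDA-MB-231 (adjusted p 0.0904 with no filter), GNAL in MDA-MB-231 (0.0998 with DESeq2, 0.112 with no filter) and SEH1L in SUM159PT (0.0669 with no filter) lost their calls.

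Replicates of the same number did not deviate together across guides, so the numbers were not taken as pairs. With the replicate block, 10 genes were higher and 17 lower in MDA-MB-231 and 2 higher and 20 lower in SUM159PT, and the line contrast of CEP192 turned to 0.033. Among the values of named genes other than YES1, over all comparisons, the block ended 2 calls and added 1. Library totals added 2 calls among these values.

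Low noncoding genes limit what the depth can show, since 132 of the 193 genes could not be tested in either line.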
